A study of Mus musculus with 2 samples.

Results

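Eicosanoid synthesis enzymes turn arachidonic acid into prostaglandins, thromboxane and leukotrienes, and 10 of them were described here in microglia, the macrophages that reside in brain and spinal cord. The members were taken by name: Pla2g4a, Ptgs1, Ptgs2, Ptges, Hpgds, Tbxas1, Alox5, Alox5ap, Lta4h and Ltc4s, the array's genes with exactly these names on both arrays. All 10 were found, with 12 of the 55681 probes and 21 spots per array, among 35019 gene names in all. Spinal cord microglia had been sorted from mice labelled control and from model mice with atopic diathesis, a tendency to develop allergic disease. The submitters' titles call the control sample normal and the atopic diathesis sample activated. Each group is 1 sample on 1 array, and both arrays lie on 1 slide. The strain, age and sex of the mice, the number of mice per sample, the way the model was made and the sorting markers are not given in the sources used here. With 1 array per group no difference below has a replicate check, no test was possible and no p-value is given.

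In this pathway cytosolic phospholipase A2 releases arachidonic acid from membrane phospholipids. The cyclooxygenases convert it to an unstable endoperoxide, from which terminal synthases make prostaglandin E, prostaglandin D or thromboxane. The lipoxygenase branch starts with 5-lipoxygenase and its membrane partner and leads to leukotriene A, which is then hydrolysed to leukotriene B or joined to glutathione to form the cysteinyl leukotrienes. Macrophages and microglia are known to produce several of these lipids, and the cysteinyl leukotrienes and prostaglandin D are known as mediators of allergic inflammation.

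The cells carried the transcripts that mark microglia. All 9 markers of a microglia list (P2ry12, Tmem119, Cx3cr1, Csf1r, Sall1, Siglech, Fcrls, Aif1 and Itgam) were well above background on both arrays and differed by less than 2-fold between them, with a median log2 difference of -0.09. Other cells that make eicosanoids were checked with lists of their own. None of 10 neutrophil markers was well above background on either array, nor any of 8 markers of border-associated macrophages or of the 5 monocyte markers on the array. Of 10 mast cell and basophil markers, 1 was above background, Mcpt4 on the atopic diathesis array only, whereas Cpa3, Tpsab1, Fcer1a and Ms4a2 were at background on both. Mcpt4 read 5.02 in control, a reading at background, and 56.5 in atopic diathesis. Signals at background are not measured levels, so no sum is given for a list wholly at background on an array. The sums given below also take in markers at background. Of 6 platelet markers Gp9 and Gp1bb were measured on both arrays, both dimmer in atopic diathesis, and Ppbp, Itga2b, Pf4 and Tubb1 were at background. The summed platelet signals were 434 and 271. Lists of 6 markers each for astrocytes, oligodendrocytes, neurons and endothelial cells had 2, 3, 1 and 1 measured on both arrays. The neuronal marker measured was Snap25, a bright signal (82155 in control, 84015 in atopic diathesis, log2 difference 0.07), and the other 5 neuronal markers were at background. The summed signals were 808 and 1022 for the astrocyte list, 1057 and 818 for the oligodendrocyte list and 476 and 254 for the endothelial list. Some of these markers differed widely. Gja1 and Pecam1 were seen in atopic diathesis only (at least 12.5-fold and 6.57-fold higher), and Flt1 in control only (at least 16.1-fold lower). Oligodendrocyte markers went both ways. Cnp had a log2 difference of 1.70, and Mag was seen in atopic diathesis only (at least 2.53-fold higher). The brightest Mobp probe read 96.6 in control and 6.91 in atopic diathesis, and the brightest Mbp probe 267 and 15.8. The 1 Mbp probe measured on both arrays had a log2 difference of 0.56. The part of these cells in the results was not tested. In a bulk sample, more cells of a type and more RNA per cell cannot be told apart.

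Values are the scanner software's background-subtracted signal in fluorescence units. A probe counted as measured where it was well above background by the software's flag, which was given down to a signal of 19.8 (control) and 19.9 (atopic diathesis). Differences are log2 ratios with control as the denominator, and 0 is the median of the 9217 genes measured on both arrays. Repeated spots of 101 probes gave a 95% interval of ±0.40 around a log2 difference, which is the spot interval printed for the members below. It pools dim and bright probes: taken separately, the interval was ±0.54 for probes with signals under 200, as for Lta4h, and ±0.19 for brighter ones, as for the other 7 members measured on both arrays. The scanner software's own error model gave standard errors of 0.20 to 0.24 for the measured members. Both cover spot error only, not the spread between mice, sorts or amplifications.

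The probes read the following stretches, of which the first 30 of 60 bases are shown, 5′ to 3′, for the 4 members with the largest differences and for the pairs of probes that disagree. Coordinates are those of the array files, on build mm9, and exon and UTR annotation of that build was not used here.
Ptgs1 probe, chr2:36107644-36107703, plus strand: gagccacacttagactctttccaaagatgt
Ptgs2 probe, chr1:151954744-151954803, plus strand: tttttgaaaagtttgaagttagaacttagg
Pla2g4a probe, chr1:151676814-151676873, minus strand: cccattgtgtgtgaatgttattctgaacta
Alox5 probe, chr6:116360326-116360385, minus strand: tttatgcttcctccaattgcttgcatagag
Ptges bright probe, chr2:30744995-30745054, minus strand: atgataaaggactaaacctctgaacctgta
Ptges dim probe, chr2:30748214-30748273, minus strand: aaccctctgatcgcctggatacatttcctc
Tbxas1 bright probe, chr6:39034356-39034415, plus strand: ttgtgtcacgctgatatagaaggcacgtgg
Tbxas1 dim probe, chr6:38902132-38902191, plus strand: ttgggtaaggtgtgcctgctaacagtaata
They start at base 2718 of the transcript for Ptgs1, 3746 for Ptgs2, 2724 for Pla2g4a and 2530 for Alox5. None of the 12 member probes shares 20 bases in a row with a probe of another gene.

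Pla2g4a, Ptgs1, Ptgs2 and Alox5, enzymes of the first steps, read higher in atopic diathesis microglia, and the other 6 members lay within 2-fold of the median gene. Of the 10 members 8 were measured on both arrays (26.3% of all genes were), 2 on the atopic diathesis array only (8.06% of all genes) and none on the control array only (4.13%). The rest of all genes were at background on both arrays (61.2%) or had probes of both kinds (0.266%). No member was at background on both arrays, so shares of all genes are not a like-for-like comparison for the members. Of the 13579 genes above background on at least 1 array, 9217 were measured on both. Another 2821 were seen in atopic diathesis alone and 1448 in control alone. Among the 8, Ptgs1 and Pla2g4a were at least 2-fold higher, against 17.3% of all measured genes, and none was at least 2-fold lower, against 15.6%. The 8 members had a median log2 difference of 0.14 and ran from -0.62 to 1.75, with 4 above and 4 below the median gene. Ptgs2 and Alox5, seen on the atopic diathesis array only, both had a bound of at least 2-fold, as did 59.2% of all genes of that class. Counting folds and bounds together, 4 of 10 members were at least 2-fold higher, where the share over all genes above background on at least 1 array was 24.1%. The corresponding share for genes at least 2-fold lower was 16%, with no member among them.

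**Figure D1:**
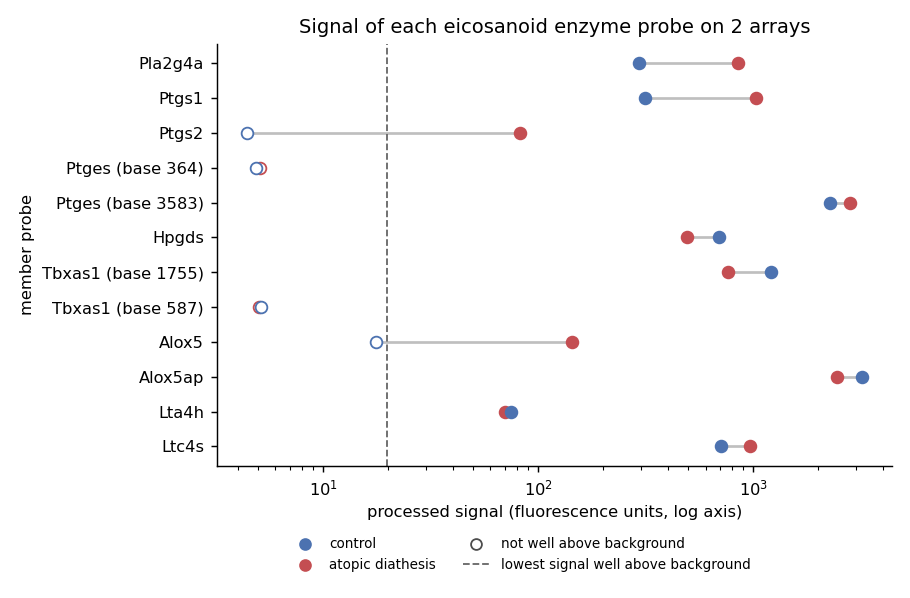
Background-subtracted signal (fluorescence units, log axis) of each of the 12 member probes on the control array (blue) and the atopic diathesis array (red); open circles were not well above background, and the dashed line is the lowest signal that passed that flag. Ptgs1, Pla2g4a, Ptgs2 and Alox5 show the widest gaps, and the second probes of Ptges and Tbxas1 lie at background on both arrays.

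Pla2g4a encodes cytosolic phospholipase A2 alpha, the calcium-dependent enzyme that frees arachidonic acid. Its signal was 295 ± 29.8 (software error, 1 spot) in control and 845 ± 84.7 in atopic diathesis microglia. The atopic diathesis array was thus the brighter, by a log2 difference of 1.55 (spot interval 1.16 to 1.95), or 2.94-fold. This difference was higher than that of 89.8% of measured genes. Under the 9 other processing settings tried it ran from 1.05 to 1.64 and stayed past 2-fold in each.

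Ptgs1 encodes cyclooxygenase 1, the form that most cells make constantly and that is known as a microglial transcript. Its signal was 313 ± 31.6 (software error, 1 spot) in control and 1026 ± 103 in atopic diathesis microglia, which gave the largest log2 difference of the measured members at 1.75 (spot interval 1.35 to 2.14), or 3.36-fold. It exceeded the difference of 91.6% of measured genes. Across the other settings it lay between 1.25 and 1.83. Both Ptgs1 and Pla2g4a fell in the fourth of 5 classes of mean signal, where 16.5% of genes were at least 2-fold higher. In the fifth and brightest class, which holds Ptges, Tbxas1 and Alox5ap, the share was 6.83%, and in the second, which holds Lta4h, 26.5%.

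Ptgs2 encodes cyclooxygenase 2, the inducible form, which is made in response to inflammatory signals. It is the member with the most readings, because its probe is printed 10 times on each array. On the control array all 10 spots were at background: the software had replaced each by a surrogate value, so their processed signals, with a median of 4.54 and a highest of 4.78, are not measured levels. On the atopic diathesis array all 10 spots were well above background, at a lowest of 67.3, a median of 84.5 and a highest of 96.2. In uncorrected brightness the control spots ran from 75.04 to 86.1 (mean 80.1 ± 3.43, SD, n = 10 spots). The atopic diathesis spots ran from 153 to 178 (mean 169 ± 9.04, SD, n = 10 spots). How often the spots of other repeated probes separate in this way was not counted. The spot interval left out 0 for 65% of all measured genes. Local background around the spots was 50 to 52 in control and 50 to 53 in atopic diathesis. The 10 spots are repeats of 1 probe on 1 sample, so they measure spot error and say nothing on the spread between mice. Against the lowest signal well above background, Ptgs2 was at least 4.26-fold higher, a bound larger than that of 69.4% of genes seen on this array only. With uncorrected signals the bound was 1.63-fold and with normexp background correction 1.84-fold, both under 2-fold.

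**Figure D2:**
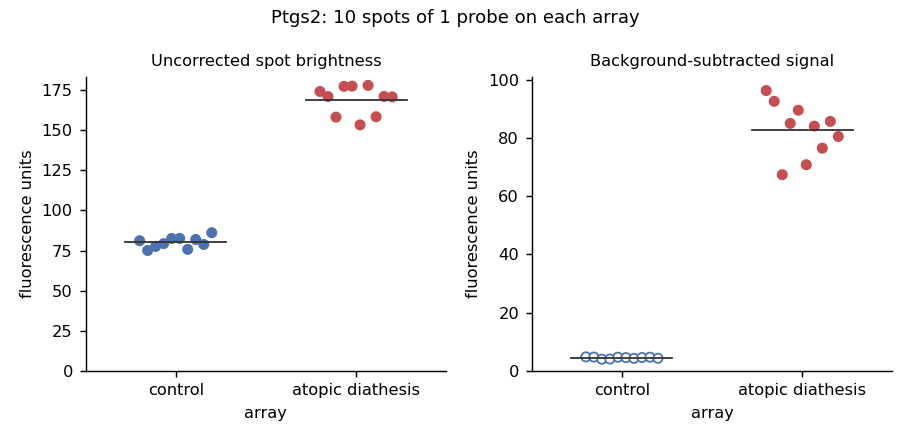
The 10 Ptgs2 spots of each array as uncorrected mean pixel brightness (left) and background-subtracted signal (right), both in fluorescence units, with lines at the mean; open circles are surrogate values put in by the scanner software. Before correction the atopic diathesis spots ran from 153 to 178 and the control spots from 75.04 to 86.1.

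Alox5 encodes 5-lipoxygenase, which makes the first leukotriene. Its signal was 17.6 in control, with a software error of 4.51, and 143 in atopic diathesis microglia. The control spot was not well above background but was positive and significant by the software's weaker flag, so the software took it as a low signal rather than none. The bound, which takes no account of spot error, was 7.41-fold higher in atopic diathesis. It was larger than that of 82.1% of genes seen on this array only. It came to 2.70-fold with normexp and 2.34-fold with uncorrected signals. Alox5 rests on 1 spot per array, unlike Ptgs2.

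Alox5ap, whose protein presents arachidonic acid to the enzyme, gave 3195 in control and 2452 in atopic diathesis microglia, a log2 difference of -0.35 (spot interval -0.74 to 0.05). The atopic diathesis array was slightly the dimmer, within the pooled spot interval but beyond that of probes as bright as this one (-0.54 to -0.16). Both proteins are known to be needed for leukotriene synthesis in intact cells.

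The enzymes that follow leukotriene A lay within 2-fold. Lta4h, the hydrolase that forms leukotriene B, read 74.8 and 69.8, a log2 difference of -0.07 (spot interval -0.46 to 0.33). Quantile normalization and the deposited series table put it at -0.45 and -0.44. Neither was recentred, and the median measured gene lay at -0.17 in both. Ltc4s, the synthase of the cysteinyl leukotrienes, read 705 and 971, a log2 difference of 0.49 (spot interval 0.10 to 0.89). Ltc4s was thus slightly brighter in atopic diathesis, but its value was -0.01 when the 75th percentile over all probes set the scale.

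The terminal prostanoid synthases lay within 2-fold as well, on both sides of the median gene. Ptges, the inducible microsomal synthase of prostaglandin E, read 2275 and 2819 at its bright probe, a log2 difference of 0.34 (spot interval -0.05 to 0.74, or 0.15 to 0.53 for probes as bright). With scaling to the 75th percentile over all probes it read -0.16. Hpgds, the haematopoietic synthase of prostaglandin D, which mast cells and microglia are known to make, read 692 and 491, a log2 difference of -0.46 (spot interval -0.86 to -0.07). Tbxas1, the thromboxane synthase, read 1207 and 766, a log2 difference of -0.62 (spot interval -1.02 to -0.23). Tbxas1 had the lowest difference of the measured members, 1.54-fold, and reached -1.12 with scaling to the 75th percentile over all probes. Hpgds and Tbxas1 were dimmer and Ltc4s, Ptgs1 and Pla2g4a brighter beyond the pooled spot interval. These are 5 of 8 members (62.5%), where the interval left out 0 for 65% of all measured genes. With intervals by signal level, chosen after seeing the data, Ptges and Alox5ap joined them, 7 of 8 members against 68% of all measured genes.

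**Figure D3:**
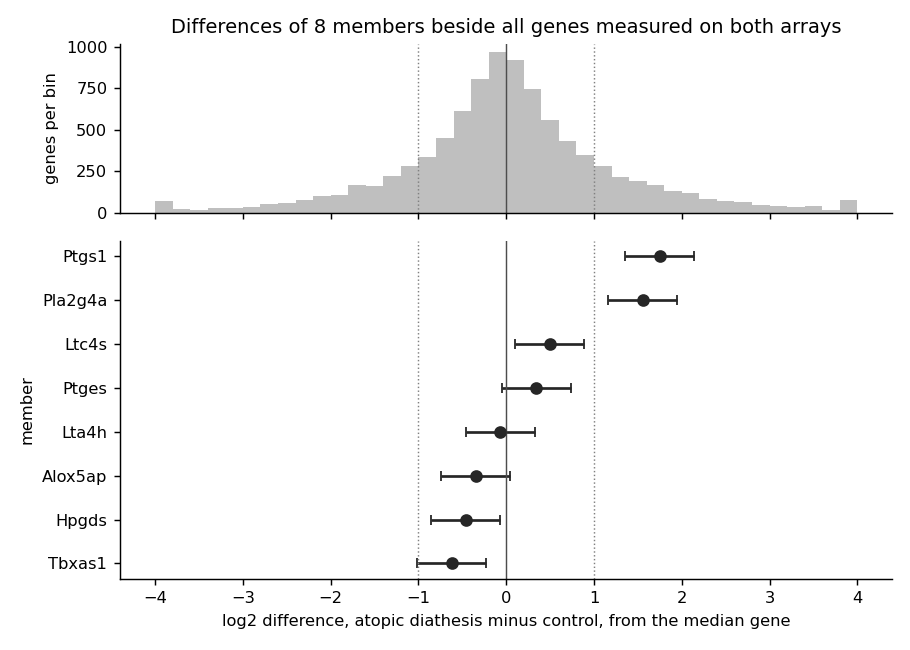
Top, number of genes per bin of log2 difference (atopic diathesis minus control, from the median gene) for the 9217 genes measured on both arrays, with values beyond ±4 gathered in the end bins. Bottom, the 8 measured members with 95% intervals from repeated spots, which cover spot error only; dotted lines mark 2-fold, which Ptgs1 (1.75) and Pla2g4a (1.55) pass.

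In the order of the differences Ptgs1 came first and Pla2g4a next, with overlapping spot intervals. Ltc4s, Ptges, Lta4h, Alox5ap, Hpgds and Tbxas1 followed in that order, and each overlapped the next. The interval of Pla2g4a, from 1.16 to 1.95, lay above that of Ltc4s, from 0.10 to 0.89, the next member down.

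For Ptges and Tbxas1 the probes disagreed on whether the gene was detected at all. The bright Ptges probe begins at base 3583 of the transcript and the dim one at base 364, 1 transcript for both per the array's annotation. The dim probe read 4.90 in control and 5.11 in atopic diathesis, surrogate values at background. The bright Tbxas1 probe begins at base 1755 of the reference transcript. The dim one was designed from another cDNA, read 5.14 and 5.05, and was also at background on both arrays. For these genes the value given is that of the bright probe alone, and the difference of each other member also rests on 1 probe. The Hpgds probe spans 3529 bases of the genome with its 60 bases, so it lies across at least 1 splice junction.

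Pla2g4a and Ptgs2 are neighbours on chromosome 1. No protein-coding gene lies between them in the RefSeq order of GRCm38.p6, and their probes are 277.871 kb apart in mm9. Both read higher in atopic diathesis microglia. The next protein-coding genes on the Pla2g4a side, Brinp3 and Rgs18, were at background on both arrays, and so was Pdc on the Ptgs2 side. Odr4, beyond Pdc, was measured at 58.0 and 72.2, a log2 difference of 0.35.

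Promoter sequence is shown for 3 of the members that read higher together. RefSeq windows were given for 9 of the 10 members, and 250 bases before to 30 after the annotated start are shown for both cyclooxygenase genes and for Alox5 (GRCm38.p6). Capitals mark matches on either strand to letters chosen with the sequences in view: GC box GGGCGG, C/EBP palindrome TTGCGCAA, cyclic AMP response core ACGTCA, E box CACGTG and PU.1 core GAGGAA. The other motifs searched were the TATA box TATAAA, the AP-1 site TGAGTCA and, by name, the NF-kappaB consensus.
Ptgs2, chr1:150099781-150100060, plus strand: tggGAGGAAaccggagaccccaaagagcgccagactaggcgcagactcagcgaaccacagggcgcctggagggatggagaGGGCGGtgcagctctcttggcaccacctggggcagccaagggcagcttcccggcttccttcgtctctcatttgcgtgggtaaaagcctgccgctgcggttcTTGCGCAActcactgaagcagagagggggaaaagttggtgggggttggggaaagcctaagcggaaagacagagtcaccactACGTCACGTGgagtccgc
Ptgs1, chr2:36230176-36230455, plus strand: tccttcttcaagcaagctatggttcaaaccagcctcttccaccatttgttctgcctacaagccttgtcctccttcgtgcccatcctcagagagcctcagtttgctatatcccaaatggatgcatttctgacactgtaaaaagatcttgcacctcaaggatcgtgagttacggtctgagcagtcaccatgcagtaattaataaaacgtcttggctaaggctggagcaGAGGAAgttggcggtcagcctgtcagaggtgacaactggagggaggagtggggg
Alox5, chr6:116461149-116461428, minus strand: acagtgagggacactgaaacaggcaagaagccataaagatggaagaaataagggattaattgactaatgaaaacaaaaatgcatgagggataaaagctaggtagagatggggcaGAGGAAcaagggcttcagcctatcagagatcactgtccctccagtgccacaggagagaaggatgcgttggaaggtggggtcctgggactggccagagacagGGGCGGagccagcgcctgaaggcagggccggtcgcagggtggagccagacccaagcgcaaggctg
The Ptgs2 window holds the C/EBP palindrome from 69 to 62 bases before the start, which 0.18% of 32851 windows of this length hold. It also holds the cyclic AMP response core at bases 13 to 18 after the start (7.26% of windows), overlapping by 2 bases the E box at 17 to 22 (6.79%), a GC box (34.7%) and the PU.1 core. The Ptgs1 window holds the PU.1 core 24 to 19 bases before the start and none of the other motifs. The Alox5 window holds the PU.1 core 136 to 131 bases before the start and a GC box 35 to 30 bases before the start. The PU.1 core, which 26% of all windows hold, was found in 8 of the 9 member windows. Its letters were chosen with these sequences in view, so 8 of 9 is no test against the 26%. The exception was Pla2g4a, whose window holds none of the motifs searched. RefSeq lists 2 windows for this gene, of which 1 was used. The TATA box (13.1% of windows) was found in Tbxas1 alone, and the AP-1 site (4.94%) and the NF-kappaB consensus (7.94%) in no member. These are matches of letters and not sites shown to be bound.

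The wider pathway was described from a list of 80 further genes by role, all present on the array. Of these, 25 were measured on both arrays, 5 on the atopic diathesis array only, 4 on the control array only and 46 on neither. The shares of all genes in these classes were 26.3%, 8.06%, 4.13% and 61.2%. At least 2-fold higher were 6 of the 25 measured (24%, against 17.3% of all measured genes) and at least 2-fold lower 3 (12%, against 15.6%), with a median of -0.04. The balance turned over with the 75th percentile over all probes as the scale, which gave 2 higher and 8 lower among the pathway genes. All 9217 measured genes gave 989 higher and 2501 lower on that scale. In control this percentile, a signal of 20.7, lay close to the lowest signal well above background, 19.8.

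Of 33 genes that supply and recycle arachidonic acid, 13 were measured, over 50% of the 25. At least 2-fold higher were 5 of the 13 (38.5%, against 17.3% of all measured genes). At least 2-fold lower was 1 (7.69%, against 15.6%), and the median was 0.28. With the 75th percentile over all probes as the scale, 2 of the 13 were higher and 2 lower. Mboat7, which puts arachidonic acid back into phosphatidylinositol, read 339 in control and 1052 in atopic diathesis (1.67). Of its 2 probes, 1 was measured on both arrays. Lpcat2, which makes platelet-activating factor and reacylates lysophospholipids, read 131 and 395 (1.63). Values in parentheses here are log2 differences, and both genes stayed past 2-fold under the 9 other settings. Fads1, the delta-5 desaturase that forms arachidonic acid, read 79.6 and 189 (1.28), and the lysosomal phospholipase gene Pla2g15 read 138 and 324 (1.26). Acsl4, the ligase that activates arachidonic acid with coenzyme A, read 1018 and 2308 (1.21). With the 75th percentile over all probes as the scale, these last 3 read 0.78, 0.76 and 0.71 and were no longer past 2-fold. With uncorrected signals or normexp, Fads1 and Pla2g15 were also within 2-fold. Plaa, a phospholipase A2 activating protein, was the lower one, at 889 and 364 (-1.25), with 1 of its 2 probes measured. Pla2g7, the hydrolase of platelet-activating factor, was seen on the atopic diathesis array only, at 4.42 and 69.6, at least 3.60-fold higher. Abhd6, a monoacylglycerol hydrolase, was also seen on that array only, at least 2.26-fold higher. Each of these genes has 2 probes, and the bound is that of the brighter one. Under normexp and uncorrected signals both bounds were under 2-fold, and that of Abhd6 also with the 75th percentile over all probes.

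**Figure D4:**
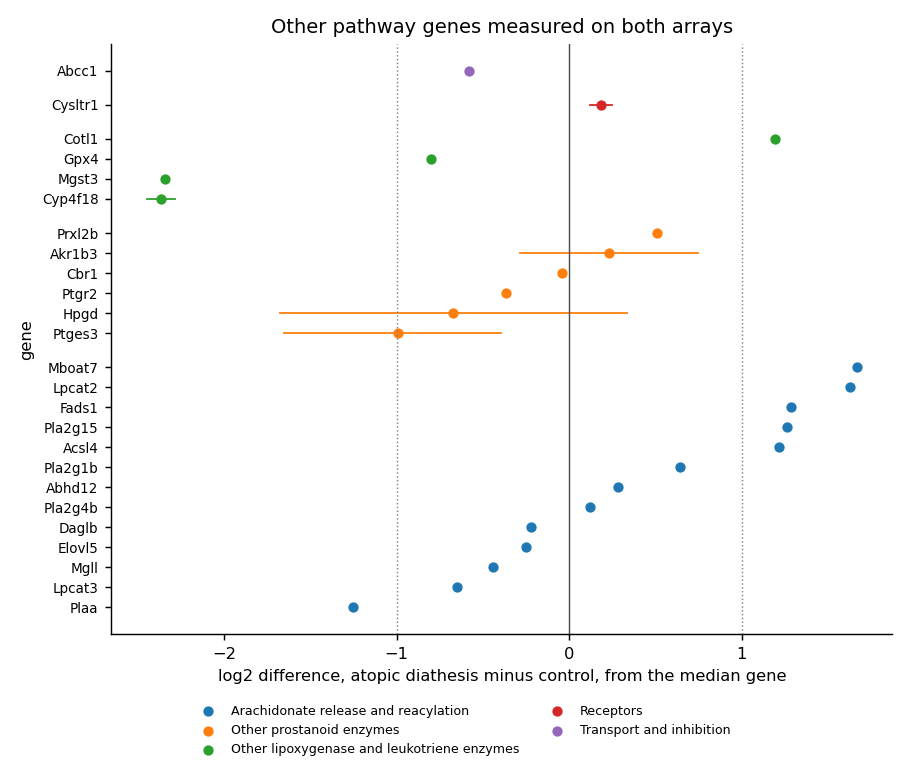
Log2 difference (atopic diathesis minus control, from the median gene) of the 25 other pathway genes measured on both arrays, coloured by role; horizontal lines join the lowest and highest probe of a gene, and dotted lines mark 2-fold. 5 of the 6 genes at least 2-fold higher belong to arachidonate release and reacylation, and Cyp4f18 (-2.37) and Mgst3 (-2.34) lie lowest.

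Other prostanoid enzymes were within 2-fold in the main setting where measured (6 of 10 genes). Ptges3, a cytosolic prostaglandin E synthase better known as the p23 co-chaperone, came nearest at -0.99, with 3 measured probes between -1.65 and -0.40. Hpgd, which inactivates prostaglandins, averaged -0.67 over probes at -1.67 and 0.33, so its probes differed in sign. With the 75th percentile over all probes as the scale both passed 2-fold lower, at -1.49 for Ptges3 and -1.17 for Hpgd, and by its brightest probe alone Hpgd did too, at -1.68. Ptgds, the lipocalin-type synthase of prostaglandin D, was above background in atopic diathesis only, at 23.1, with a bound of 1.20-fold.

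Among 16 other lipoxygenase and leukotriene genes, 4 were measured on both arrays, with a median of -1.57. At least 2-fold higher was 1 of the 4 (25%, against 17.3% of all measured genes) and 2 were lower (50%, against 15.6%). With 4 genes, the shares and the median rest on few values. Cyp4f18, the leukocyte enzyme that oxidises leukotriene B, averaged 537 in control and 102 in atopic diathesis over its 2 probes. Its log2 difference was -2.37, with the probes at -2.45 and -2.28, and it stayed past 2-fold under the 9 other settings. Mgst3, a microsomal glutathione transferase of the same protein family as Alox5ap and Ltc4s, read 128 and 24.7 (-2.34). The second value is close to the detection limit of 19.9 on the atopic diathesis array, and 1 of the 2 Mgst3 probes was measured. With uncorrected signals Mgst3 read -0.99. Ggt5, which cuts the glutamate from cysteinyl leukotrienes, was seen on the control array only. The brightest of its 3 probes read 222 and 4.73, a bound of at least 10.9-fold lower. For comparison, 51.1% of all genes seen on the control array only had a bound of at least 2-fold. Cotl1, an actin-binding protein that binds 5-lipoxygenase, was the higher one, at 616 and 1373 (1.19), and 0.69 with scaling to the 75th percentile over all probes. The lipoxygenase genes Alox12, Alox12b, Alox12e, Alox15, Alox8 and Aloxe3 were at background on both arrays.

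Of 17 receptor genes for these and related lipids 1 was measured on both arrays. Cysltr1, the main receptor of the cysteinyl leukotrienes, averaged 646 in control and 718 in atopic diathesis over 2 probes, a log2 difference of 0.18 that became -0.32 with the 75th percentile over all probes. Ptgdr2, the prostaglandin D receptor of type 2 immune cells, was above background in atopic diathesis only, at 5.04 and 56.3, at least 2.91-fold higher, and under 2-fold with normexp or uncorrected signals. Ptger4 and Ptger1, receptors of prostaglandin E, were above background in control only, at 40.3 and 23.5, with bounds of 1.98-fold and 1.15-fold. The other 13 (Ptger2, Ptger3, Ptgdr, Ptgfr, Ptgir, Tbxa2r, Cysltr2, Ltb4r1, Ltb4r2, Gpr17, Oxgr1, Fpr2 and Cmklr1) were at background on both arrays. Of the transport and inhibition genes, the leukotriene exporter Abcc1 was measured, at 165 and 108 (-0.58), and Abcc4, Slco2a1 and Anxa1 were not above background.

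**Figure D5:**
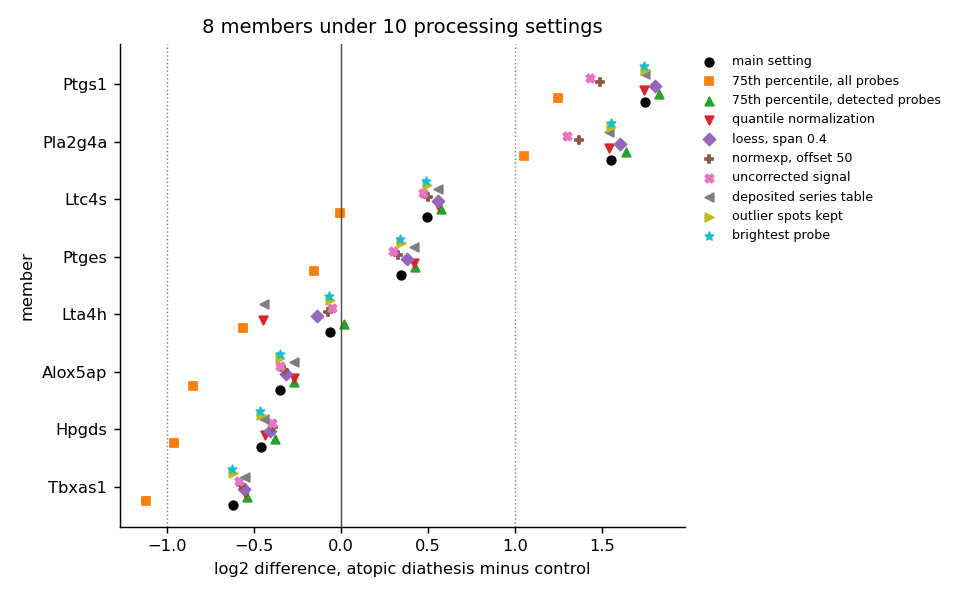
Log2 difference (atopic diathesis minus control) of the 8 measured members under 10 processing settings, the main one in black; dotted lines mark 2-fold. Ptgs1 and Pla2g4a stay past 2-fold in all 10, and scaling to the 75th percentile over all probes (orange) shifts each member down by the same amount.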

How the data were processed

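Total RNA of sorted spinal cord microglia, 1 control and 1 atopic diathesis sample, was extracted with TRIzol, cleaned on columns, amplified and labelled with Cy3 by a low-input kit, per the labels' protocols. The deposited scanner files hold the fluorescence intensity of each spot on 1-colour Agilent mouse arrays, made with Feature Extraction 10.7.1.1 per the file headers (9.5.1.1 per the submitters' processing notes). The processed signal is background-subtracted, with a surrogate value where a spot is not above background, per the file headers; the software's p-value against background and its other flags are deposited in the same files. The deposited series table also holds linear intensity (median 6.64 in both columns) with ranks equal to the scanner's (Spearman correlation of 1 across probes); its values look quantile-normalized, but no source used here states how.

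Control spots and outlier spots (136 and 122) were left out, no spot was saturated, and log2 signals of repeated spots were averaged. A repeated probe counted as detected where over 50% of its spots were. The log2 signal was scaled by the 75th percentile of probes detected on both arrays, and differences were then centred on the median measured gene, which lay at 0.08 on that scale and at -0.50 with the percentile of all probes. A gene's value is the mean over probes well above background on both arrays, and a gene seen on 1 array has a bound: its brightest probe on the bright array, divided by the dim array's lowest detected signal or, if higher, the dim probe's own. Bounds take no account of spot error. Detected probes were 24.1% (control) and 27.6% (atopic diathesis). Gene names came from RefSeq accessions (27229 probes matched) or from the file. All 10 members and all their probes are named, with pathway genes at least 2-fold apart (as a fold or a bound) and all receptors; further genes were named after their values were seen. Promoter windows are RefSeq's, GRCm38.p6.

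One marker of the microglia list is not reported here. The members and lists were chosen with earlier results of these data known. Scripts (Python 3.11.15, limma 3.58.1 in R 4.3.3) were tested on simulated data. Alternatives were other scalings (75th percentiles without recentring, quantile, loess with span 0.4), normexp with offset 50, uncorrected signals, the deposited series table, other detection rules, kept outliers, the brightest probe and a 1.5-fold threshold; for pathway genes they were added after the data were seen.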

Additional observations from a re-analysis of the deposited data

How the results depend on the processing

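The directions of Ptgs1, Pla2g4a, Hpgds, Tbxas1 and Alox5ap were the same under all 9 alternatives for log2 differences. Of 78 values for the members, 59 moved by less than the spot SD of 0.20. Not all of these settings are separate checks. Each measured member has 1 detected probe without outlier spots, so kept outliers and the brightest probe could only shift it with the median gene. The 75th percentile over detected probes moved every member by the same 0.08, and the deposited series table nearly repeated quantile normalization. The count of 2 members at least 2-fold higher held under all 9, and became 4 with probes detected on either array and 4 with no background filter, where Ptgs2 and Alox5 have values too. Ptges and Ltc4s turned negative with scaling to the 75th percentile over all probes (-0.16 and -0.01), and Lta4h was 0.02 with that percentile over detected probes. The count at least 2-fold lower went from 0 to 1, Tbxas1, with scaling by the 75th percentile of all probes and with a 1.5-fold threshold. That scaling lowers every gene by the same amount and took the median of the measured members from 0.14 to -0.36; over all genes it gave 989 higher and 2501 lower (28.3% higher) against 1596 and 1436 (52.6%). Quantile normalization gave 1325 and 1830 (42%). From the authors' series table the counts were 1320 higher and 1821 lower. Normexp gave 1008 and 965, uncorrected signals 900 and 882. With a 1.5-fold threshold the counts were 2405 and 2268, with detection on either array 3933 and 2955, and with no filter 5604 and 3065 (64.6% higher). With the software's weaker detection flag Alox5 counted as detected on both arrays, leaving 1 member, Ptgs2, on the atopic diathesis array only. Among the other pathway genes, counts past 2-fold were 6 higher and 3 lower, but 2 and 8 with the 75th percentile over all probes; the other settings gave 4 to 6 higher and 2 to 4 lower. No paired analysis was possible because each group is 1 array and the result comes from no test; leaving out a replicate was not possible for the same reason. Signal over background limits Ptgs2, Alox5 and Lta4h most.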
